A study of Mus musculus with 9 samples.

Results

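Expression of 10 genes for fibronectin, fibulins, fibrillins, elastin and matricellular glycoproteins was examined in Lewis lung carcinoma (LLC) cells with and without CD47. The members were picked by symbol and were Fn1, Fbln1, Fbln2, Fbln5, Fbn1, Fbn2, Eln, Tnc, Postn and Sparc, which are 10 of the 50813 genes listed in the count table. LLC is a mouse lung carcinoma line. RNA-seq libraries were made in vitro from WT cells and from clones E3 and E5, 2 CD47 KO lines that were raised from single cells after electroporation of Cas9 protein with a guide RNA. Each of the 3 lines had 3 libraries of polyadenylated RNA, and all were grown in DMEM with fetal bovine serum. The comparison asks how the expression program of these cells differs once CD47 is lost.

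WT cells are a single line and both KO lines grew from 1 cell each, so an effect of genotype and an effect of cloning cannot be told apart. The study's methods call the replicates of a genotype independent and biological, while the labels only number them, and the p-values measure the spread between the libraries of a line. Libraries held 47574047 to 49621282 counts in the WT line, 44257404 to 48672040 in the line of clone E3 and 47378308 to 55095219 in that of clone E5. Levels are given in CPM, which are counts scaled to a common library size after TMM normalization. Of all genes listed, 14593 passed a filter on low counts and were tested, among them 7 of the 10 members.

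The proteins of this group are secreted and form, or bind to, the matrix around cells. Fibronectin is assembled into fibrils through integrins on the cell surface. Fibrillins polymerize into microfibrils, and fibulins help to join these microfibrils to elastin in elastic fibers. Matricellular proteins such as tenascin-C, periostin and SPARC contribute little to the structure of the matrix and instead modulate how cells attach to it.

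Replicate 3 of clone E3 stood apart from the other libraries. Its median absolute log2 deviation from the mean of its line, over the tested genes, was 0.256. The same measure was 0.149 and 0.172 in the other libraries of clone E3, 0.0438 to 0.0737 in WT and 0.0527 to 0.0871 in clone E5. Where a call or the direction of a member changed without this library, both values are given.

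Cd47 (ENSMUSG00000055447.20, chr16:49620896-49735373 on the plus strand of GRCm39), the targeted gene, was measured at 187, 179 and 182 CPM in the WT libraries. It was at 47.4, 36.7 and 49.6 CPM in clone E3 and at 15.5, 18.6 and 18.1 CPM in clone E5. Every library of a KO clone lay below every WT library, and those of clone E5 lay below those of clone E3. The means were 182 ± 3.92 CPM in WT, 44.6 ± 6.87 CPM in clone E3 and 17.4 ± 1.66 CPM in clone E5 (SD, n = 3 each). By edgeR's quasi-likelihood F test and the Benjamini-Hochberg adjustment, the log2 difference between the clones was -1.36 (SE 0.13, adjusted p = 2.76e-05).

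Sparc and Tnc rose in clone E3, whereas Fbn1 and Tnc fell in clone E5, the calls of Tnc being lost in 8 of 15 alternatives in clone E3 and in 5 of 15 in clone E5. Fn1 had the highest level per length of the members in WT, and its lower values in both clones did not pass the test. Fbln2 fell to near or below the detection limit in both clones, and Fbn2, Eln and Postn had too few counts to be tested.

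A gene was called when it passed an FDR of 0.05 and differed by more than 1 in either direction on the log2 scale. In clone E3 against WT, 2 members were called higher (Sparc and Tnc), where 5.43% of all tested genes were, and 1 was called lower (Fbln2), against 4.39%. At an FDR under 0.05 alone, the numbers were 3 higher, with Fbln1 added, and 1 lower, where 15.7% and 14.7% of all tested genes passed. In clone E5 against WT, 3 members were called lower (Fbln2, Fbn1 and Tnc), against 5.52% of all tested genes, and edgeR called 0 higher, against 2.69%. No tested member was higher in clone E5 at an unadjusted p under 0.05 either, and DESeq2 also called 0. An FDR under 0.05 alone gave the same 3 and 0 members, where 11.7% and 8.96% of all tested genes passed. In clone E5 against clone E3, 1 member was called higher (Fbln2), against 3.49%, and 3 were called lower (Fbn1, Sparc and Tnc), against 7.52%. With the FDR alone these became 1 and 4, Fbln1 joining the lower ones, where 14.7% and 17.2% of all tested genes passed.

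These counts are small numbers of a short list, and whether they exceed the background was not tested. Fbln2 passed the filter only through its WT counts, so against WT it could be tested only as a gene that is lower in the clones. A fit of only the clones did not test it, and the counts that hold it are no support for a direction of the group. Tnc passed the filter through WT and clone E3, and clone E5 alone would not have passed it. The counts of members lower in clone E5 that hold Tnc are no such support either. Both comparisons with WT use the same WT libraries and are given side by side.

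Fn1 (ENSMUSG00000026193.16, chr1:71624679-71692359 on the minus strand of GRCm39) encodes fibronectin, the adhesive glycoprotein that cells bind through integrins such as alpha5 beta1. Its level was 2246, 1778 and 1762 CPM in WT, 1481, 1254 and 556 CPM in clone E3, and 915, 1167 and 1578 CPM in clone E5. No library of a clone reached the lowest WT value, while the clones overlapped each other. The highest value of clone E3 was 2.66 times its lowest, against 1.27 times in WT and 1.73 times in clone E5.

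The means of Fn1 were 1929 ± 275 CPM in WT, 1097 ± 482 CPM in clone E3 and 1219.9 ± 335 CPM in clone E5 (SD, n = 3 each). The log2 fold change by edgeR with Benjamini-Hochberg adjustment was -0.81 in clone E3 against WT (SE 0.32, adjusted p = 0.0757). In clone E5 against WT it was -0.66 (SE 0.31, adjusted p = 0.171). The 95% intervals ran from -1.51 to -0.11 in clone E3 and from -1.36 to 0.037 in clone E5, and neither change was called. The difference between the clones was 0.15 (SE 0.31, adjusted p = 0.744), and it turned to -0.16 without replicate 3 of clone E3 and to -0.072 without replicate 3 of clone E5. The result in clone E3 depended on single libraries, on the tool and on the count filter. Without replicate 3 of clone E3, the change in that clone was -0.50 and passed the FDR but not the fold threshold (adjusted p = 0.0486), and without replicate 1 of clone E3 it was -1.09 and was called (adjusted p = 0.0422). DESeq2 gave an adjusted p of 0.0287 at -0.81, and a fit with no filter on low counts gave 0.0117 at -0.82. Over all alternatives the adjusted p in clone E3 ranged from 0.0117 to 0.205. In clone E5 the FDR was passed without replicate 3 of clone E3 (-0.66, adjusted p = 0.00736) and in a fit of only WT and clone E5 (-0.66, adjusted p = 0.00816), within a range of 0.00736 to 0.424.

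**Figure D1:**
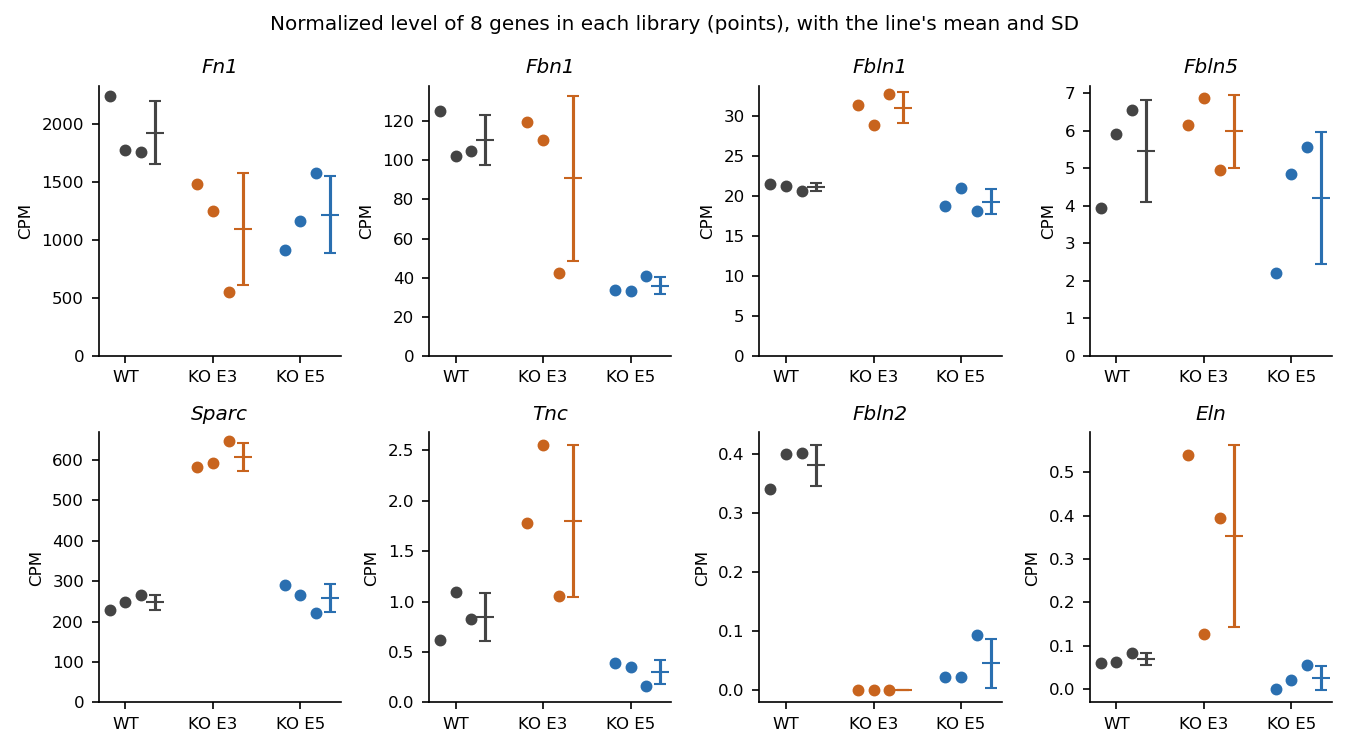
CPM (vertical axes, each with a scale of its own) of 8 members in the 3 libraries of WT, KO E3 and KO E5 (points), with the mean and SD of each line beside them. The axes start at 0, or below 0 for Fbln2 and Eln. Sparc was at 582 to 646 CPM in KO E3 and at no more than 289 CPM elsewhere, and Fbn1 was at 33.2 to 41.0 CPM in KO E5.

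The plot of CPM by library shows the members with more than 1 count in any line. The separation of clone E3 for Sparc and Fbln1, and of clone E5 for Fbn1, is visible in it, as is the low point of clone E3 in Fn1 and Fbn1, which is replicate 3 in both panels.

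Fbn1 (ENSMUSG00000027204.14, chr2:125142514-125349913 on the minus strand of GRCm39) encodes fibrillin-1, the main building block of microfibrils in adult tissue, which also hold latent TGF-beta complexes. WT libraries had 125, 102 and 105 CPM, those of clone E3 119.7, 110.3 and 42.4 CPM, and those of clone E5 33.8, 33.2 and 41.0 CPM. Clone E5 lay below every other library of the series. In clone E3, 2 libraries lay within the WT range and replicate 3 lay near the level of clone E5.

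Fbn1 fell in clone E5, from 111 ± 12.7 CPM in WT to 36.0 ± 4.37 CPM (SD, n = 3 each). By edgeR with Benjamini-Hochberg adjustment, the log2 fold change was -1.62 (SE 0.31, adjusted p = 0.00435), which is 3.07-fold lower. In clone E3, with a mean of 90.8 ± 42.2 CPM (SD, n = 3), the change was -0.28 (SE 0.30, adjusted p = 0.515), and without replicate 3 of clone E3 it was 0.054 (adjusted p = 0.715, in a range of 0.253 to 0.744). The clones differed from each other by -1.34 (SE 0.31, adjusted p = 0.00801). Without replicate 3 of clone E3 that difference was -1.67 and the change in clone E5 was -1.61, with adjusted p-values of 1.94e-07 and 1.57e-07. Over all alternatives these 2 adjusted p-values reached at most 0.0369 and 0.0259.

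Promoter windows were taken from RefSeq on GRCm38.p6, an earlier build than that of the counts, and run from 250 bases before to 50 bases after a transcription start. Of the 10 members, 7 matched, with 11 windows of 300 bases, and the members named without a window are Fn1, Fbn2 and Eln. They were searched on both strands for CRE (TGACGTCA), AP-1 (TGANTCA, where N is any base), TEAD (GGAATG), SP1 (GGGCGG), the CCAAT box (CCAAT) and the TATA box (TATAAA). Windows are printed for Fbn1, Fbln1, Sparc and Tnc, the members that passed an FDR under 0.05 in at least 1 comparison and had counts in every library. All are written 5′ to 3′ on the strand of the gene, in lower case with the motif matches in capitals. For a gene with 2 windows, the one with more kinds of motif is given. In the window of Fbn1, at chr2:125506389-125506688 on the minus strand of GRCm38.p6, the capitals mark 1 SP1 match that begins at -185 from the start.
Fbn1: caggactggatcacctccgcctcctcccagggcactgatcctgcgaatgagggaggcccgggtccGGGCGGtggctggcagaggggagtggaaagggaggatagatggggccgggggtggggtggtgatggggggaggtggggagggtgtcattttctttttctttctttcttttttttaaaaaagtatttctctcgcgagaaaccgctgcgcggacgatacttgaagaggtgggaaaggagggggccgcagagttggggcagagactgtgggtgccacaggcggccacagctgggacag
SP1 letters were present in 35.7% of the 32851 windows of this length in the table, the CCAAT box in 37.4%, TEAD in 14.7%, the TATA box in 13.6%, AP-1 in 7.81% and CRE in 1.79%. Among the 11 windows of the members, 6 held SP1 (Fbln1, Fbln2, Fbln5, Fbn1 and Tnc), 3 the TATA box (Tnc and Postn), 2 the CCAAT box (Fbln5 and Postn), and 0 held CRE, AP-1 or TEAD. In these windows no match shared bases with a match of another motif. A match is a description of the letters and not a site of binding, and a missing match says only that the letters are not in the window.

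Fbln1 (ENSMUSG00000006369.15, chr15:85090150-85170736 on the plus strand of GRCm39) encodes fibulin-1, which binds fibronectin and is found in elastic fibers and basement membranes. The WT libraries had 21.5, 21.2 and 20.6 CPM, those of clone E3 31.4, 28.9 and 32.8 CPM, and those of clone E5 18.8, 21.0 and 18.1 CPM. Clone E3 lay above every other library, and clone E5 overlapped WT. Its window at chr15:85205758-85206057, on the plus strand of GRCm38.p6, held SP1 letters at -11 on the opposite strand and at 12 on the strand of the gene, both in capitals.
Fbln1: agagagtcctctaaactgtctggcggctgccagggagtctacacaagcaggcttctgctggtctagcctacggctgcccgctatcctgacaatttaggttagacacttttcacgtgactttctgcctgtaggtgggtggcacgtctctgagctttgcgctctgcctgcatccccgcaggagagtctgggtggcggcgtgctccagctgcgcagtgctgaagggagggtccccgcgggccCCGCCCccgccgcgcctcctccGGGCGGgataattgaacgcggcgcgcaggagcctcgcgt
Fbln1 rose from 21.1 ± 0.502 CPM in WT to 31.0 ± 1.95 CPM in clone E3 (SD, n = 3 each). The log2 fold change of 0.55 (SE 0.10) passed the FDR by edgeR with Benjamini-Hochberg adjustment (adjusted p = 0.00183) but lay under the fold threshold. In clone E5, at 19.3 ± 1.52 CPM (SD, n = 3), the change was -0.13 (SE 0.10, adjusted p = 0.387). The clones differed by -0.69 (SE 0.10, adjusted p = 0.000463).

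Fbln5 (ENSMUSG00000021186.10, chr12:101712824-101785314 on the minus strand of GRCm39) encodes fibulin-5, which binds integrins and is needed for elastic fiber assembly. It was at 3.95, 5.91 and 6.56 CPM in WT, at 6.16, 6.87 and 4.95 CPM in clone E3, and at 2.22, 4.86 and 5.57 CPM in clone E5. All 3 lines overlapped. The log2 fold changes were 0.13 (SE 0.30) in clone E3, -0.37 (SE 0.31) in clone E5 and -0.50 (SE 0.31) between the clones, with intervals that ran as low as -1.05 in clone E5 and as high as 0.80 in clone E3, so differences of those sizes are not excluded. The value in clone E3 turned to -0.060 without replicate 1 of WT. In clone E5, replicate 1 lay 0.81 below the mean of its line on the log2 scale, and without it the change in that clone was -0.074 and the difference between the clones -0.20. Leaving out 1 library at a time gave -0.63 to -0.074 in clone E5 against WT and -0.76 to -0.20 between the clones.

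Fbln2 (ENSMUSG00000064080.13, chr6:91189437-91249522 on the plus strand of GRCm39) encodes fibulin-2, another partner of fibronectin and of basement membrane proteins. It had 17, 19 and 19 counts in the WT libraries, 0 in each library of clone E3, and 1, 1 and 5 counts in clone E5. With 0 counts in clone E3, a floor of 3 counts over the group puts its level at least 18.1-fold below WT, where it was 0.380 ± 0.0345 CPM (SD, n = 3). That bound takes the WT counts as exact, and the 95% Clopper-Pearson interval of the ratio reaches up to 0.0704. In clone E5 the ratio to WT was 0.126 (95% Clopper-Pearson interval of the counts, 0.0483 to 0.277), that is 7.95-fold lower. Counting intervals and floors cover counting error only.

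Both decreases of Fbln2 were called by edgeR with Benjamini-Hochberg adjustment, with adjusted p-values of 0.000621 and 0.00445. The fitted value of -2.94 in clone E5 depends on the prior count and was -3.98 without replicate 3 of clone E5, which holds 5 of the 7 counts of that clone. Between the clones, these counts stood at least 2.27-fold above the floor of clone E3 if taken as exact, while the counting interval of the ratio begins at 1.40 (adjusted p = 0.0394 by edgeR). That call was lost without any 1 of the WT replicates 1, 2 and 3 (adjusted p = 0.0615, 0.0641 and 0.0633), without replicate 1, 2 or 3 of clone E3 (0.0738, 0.0643 and 0.0506) and without replicate 3 of clone E5 (0.146), and with the replicate number as a block (4.23, adjusted p = 0.0735), and the range over all alternatives was 0.0319 to 0.146. The fitted value, 4.27 with all libraries, was 3.21 without replicate 3 of clone E5 and 4.26 to 4.29 in the other fits without a library that lost the call.

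Eln and Fbn2 encode elastin, the core of elastic fibers, and fibrillin-2, a microfibril protein of developing tissue. Eln (ENSMUSG00000029675.13) had 3, 3 and 4 counts in WT, 27, 6 and 18 counts in clone E3, and 0, 1 and 3 counts in clone E5. Every library of clone E3 lay above those of the other lines, but counts were too low for the filter. Over the groups, clone E3 had 5.17 times the normalized counts of WT (95% Clopper-Pearson interval 2.60 to 11.4), and clone E5 had 0.395 times (0.0905 to 1.37). The latter interval includes no difference. Clone E5 lay 13.1-fold below clone E3, a ratio of 0.0764 (0.0201 to 0.208).

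In a fit with no filter on low counts, edgeR with Benjamini-Hochberg adjustment called Eln higher in clone E3 than in WT (2.31, adjusted p = 0.0101) and lower in clone E5 than in clone E3 (-3.59, adjusted p = 0.000716). Eln also entered 7 of the fits that left out 1 library, but only through its counts in clone E3. It could be tested there only as a gene that is higher in that clone, so these fits support no direction. Between the clones they gave -4.73 without replicate 3 of clone E5 and -3.08 without replicate 1 of clone E5. In 3 of them, those without a WT replicate, it was not called against WT (2.23, 2.26 and 2.48, adjusted p = 0.0671, 0.0677 and 0.053). Fbn2 had 1 count in replicate 1 of WT and 0 in every other library, and no fold is given for it.

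Sparc (ENSMUSG00000018593.14, chr11:55285326-55314009 on the minus strand of GRCm39) encodes SPARC or osteonectin, a collagen-binding protein that loosens cell attachment. It was at 228, 248 and 266 CPM in WT, at 582, 593 and 646 CPM in clone E3, and at 289, 265 and 220.3 CPM in clone E5. Clone E3 lay far above both other lines, which overlapped each other. The Sparc window at chr11:55420031-55420330, on the minus strand of GRCm38.p6, held none of the 6 motifs and has no capitals.
Sparc: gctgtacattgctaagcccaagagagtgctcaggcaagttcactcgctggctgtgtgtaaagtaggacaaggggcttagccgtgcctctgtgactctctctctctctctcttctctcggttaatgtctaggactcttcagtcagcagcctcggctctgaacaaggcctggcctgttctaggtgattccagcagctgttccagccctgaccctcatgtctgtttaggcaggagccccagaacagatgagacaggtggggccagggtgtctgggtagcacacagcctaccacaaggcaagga
Sparc rose 2.46-fold in clone E3, from 247 ± 19.3 to 607 ± 34.3 CPM (SD, n = 3 each). By edgeR with Benjamini-Hochberg adjustment the log2 fold change was 1.30 (SE 0.12, adjusted p = 4.93e-05). In clone E5 the mean was 258 ± 35.0 CPM (SD, n = 3) and the change was 0.063 (SE 0.12, adjusted p = 0.758), with an interval of -0.20 to 0.32. It turned to -0.032 without replicate 1 of clone E5. The clones differed by -1.23 (SE 0.12, adjusted p = 3.67e-05).

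Tnc (ENSMUSG00000028364.16, chr4:63878022-63965252 on the minus strand of GRCm39) encodes tenascin-C, a hexameric glycoprotein that interferes with adhesion to fibronectin. It had 31, 52 and 39 counts in WT, 89, 121 and 48 counts in clone E3, and 18, 16 and 9 counts in clone E5. As CPM, these were 0.621 to 1.09 in WT, 1.06 to 2.56 in clone E3 and 0.166 to 0.388 in clone E5. Clone E5 lay below every other library, while replicate 3 of clone E3 fell inside the WT range. The first window of Tnc, at chr4:64046887-64047186 on the minus strand of GRCm38.p6, held SP1 letters at -246 and TATA box letters at -205, both in capitals.
Tnc: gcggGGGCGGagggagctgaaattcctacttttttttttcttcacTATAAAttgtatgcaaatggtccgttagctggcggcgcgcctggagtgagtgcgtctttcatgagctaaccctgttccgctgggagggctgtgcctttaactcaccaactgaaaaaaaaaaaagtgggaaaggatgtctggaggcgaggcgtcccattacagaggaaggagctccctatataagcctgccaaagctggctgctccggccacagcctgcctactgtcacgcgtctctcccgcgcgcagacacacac
The second window of Tnc overlaps the first and holds the same letters nearer to its start. By edgeR with Benjamini-Hochberg adjustment, Tnc rose in clone E3 by a log2 fold change of 1.09 (SE 0.36, adjusted p = 0.0435) and fell in clone E5, at -1.50 (SE 0.43, adjusted p = 0.0317). The clones differed by -2.59 (SE 0.41, adjusted p = 0.000953), or 6.03-fold. Tnc passed the filter on low counts through the lines where it was higher. Over the filter level were 3 libraries each of WT and clone E3, and 2 of clone E5. Clone E5 alone would not have passed it, so its decrease there is no support for a direction of the group.

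The calls of Tnc against WT lay near the FDR threshold. Most fits that lost them gave a log2 fold change about as large or larger. In clone E3 the call was lost without replicate 1, 2 or 3 of WT, at log2 fold changes of 0.90, 1.31 and 1.07 (adjusted p = 0.15, 0.0582 and 0.121). It was also lost without replicate 1 or 2 of clone E3, at 1.10 and 0.75 (adjusted p = 0.085 and 0.139), without replicate 1 or 2 of clone E5, at 1.09 each (adjusted p = 0.0559 and 0.0628), and in a fit of only WT and clone E3, at 1.09 (adjusted p = 0.0607). Without replicate 3 of clone E3 the value was 1.35 (adjusted p = 0.00319), and the range over all alternatives was 0.00319 to 0.15. In clone E5 the call was lost without replicate 2 or 3 of WT, at -1.28 and -1.52 (adjusted p = 0.119 and 0.0758), and without replicate 1, 2 or 3 of clone E5, at -1.74, -1.63 and -1.19 (adjusted p = 0.0573, 0.0754 and 0.109), in a range of 0.00396 to 0.119. The difference between the clones was called in every fit that tested Tnc. The value of 0.00396 is from DESeq2 and the other p-values are from edgeR, all with Benjamini-Hochberg adjustment.

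Postn, for periostin, had 0 counts in all 9 libraries.

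**Figure D2:**
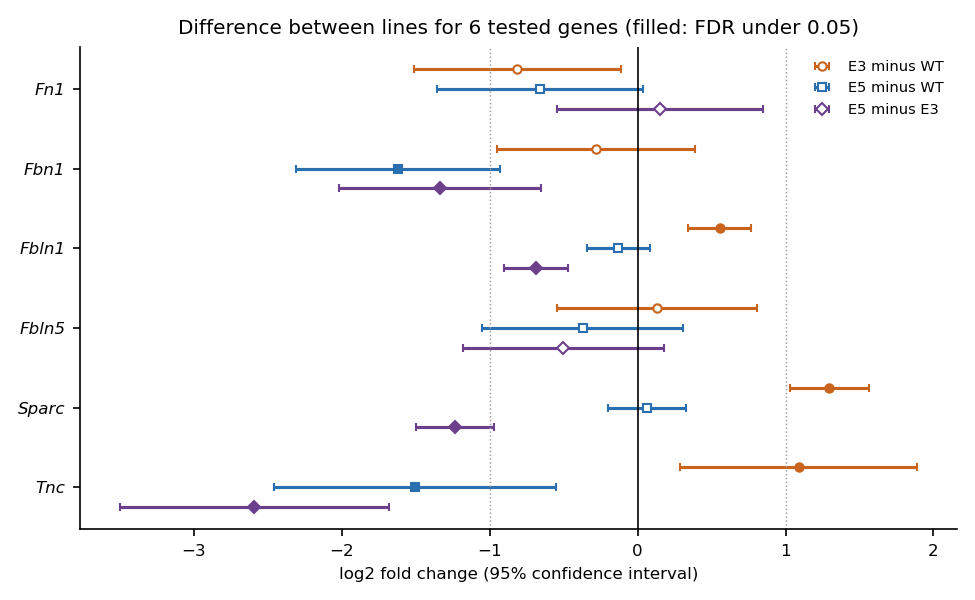
Log2 fold change (horizontal axis) of 6 tested members with its 95% confidence interval, for E3 minus WT, E5 minus WT and E5 minus E3. Filled symbols have an FDR under 0.05, and the dotted lines mark the fold threshold of 1 in either direction. Sparc lies at 1.30, 0.063 and -1.23, and Fbn1 at -0.28, -1.62 and -1.34.

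The plot of log2 fold changes sets the 3 comparisons side by side and leaves out Fbln2, whose fitted values depend on the prior count. Sparc and Fbln1 differed between WT and clone E3 but not detectably between WT and clone E5, and Fbn1 the other way round. For Sparc, Fbln1, Fbn1 and Tnc the difference between the clones also passed an FDR of 0.05, and for Fn1 and Fbln5 it did not. Standard errors were 0.30 to 0.32 for Fn1, Fbln5 and Fbn1 and 0.36 to 0.43 for Tnc, against 0.10 for Fbln1 and 0.12 for Sparc.

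Levels were set in order per kilobase of exon. In WT, Fn1 came first at 122 ± 17.4 CPM per kb, followed by Sparc at 57.9 ± 4.53, Fbn1 at 9.12 ± 1.05, Fbln1 at 4.61 ± 0.109, Fbln5 at 0.750 ± 0.187, Tnc at 0.106 ± 0.0298, Fbln2 at 0.0542 ± 0.00492 and Eln at 0.00838 ± 0.00161 CPM per kb (SD, n = 3 each). No neighbours among these 8 overlapped in WT by this length, but with the length of the canonical transcript Fbn1 and Fbln1 did, at 9.21 and 9.06 CPM per kb. In clone E3, Sparc came first at 142 ± 8.05 CPM per kb, 2.05 times Fn1 at 69.3 ± 30.5 (SD, n = 3 each). Fbn1 and Fbln1 followed at 7.49 and 6.77 CPM per kb with overlapping libraries, and they change places, without overlap, by the canonical length. In clone E5, Fn1 at 77.1 ± 21.1 CPM per kb and Sparc at 60.5 ± 8.21 (SD, n = 3 each) overlapped, and Fbln1 at 4.21 CPM per kb stood above Fbn1 at 2.97. Fbln2 and Eln overlapped in clone E5, where both were near the detection limit.

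**Figure D3:**
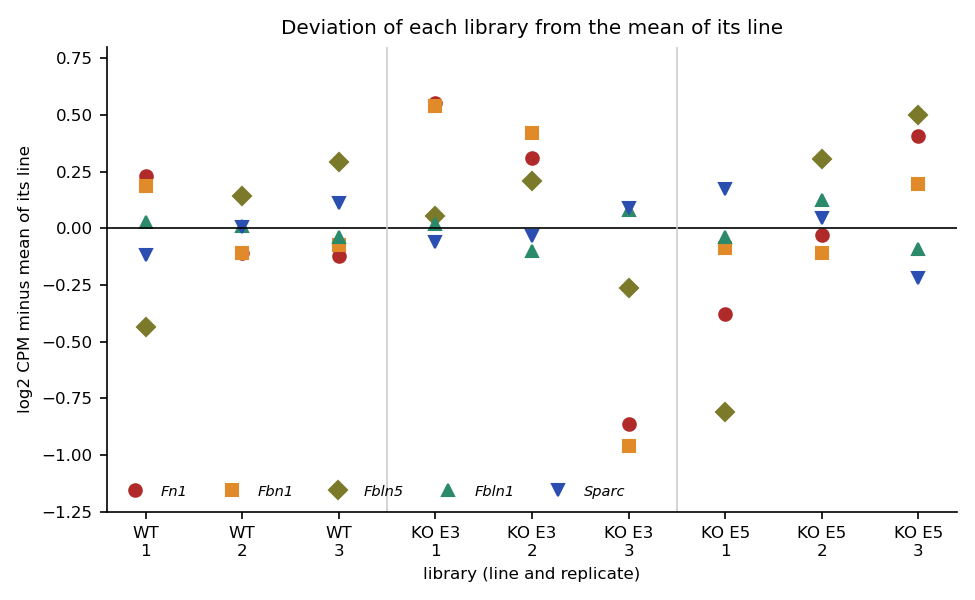
Log2 CPM of Fn1, Fbn1, Fbln5, Fbln1 and Sparc in each library minus the mean of its line (vertical axis), for the 3 libraries of WT, KO E3 and KO E5 (horizontal axis, by line and replicate). In replicate 3 of KO E3, Fn1 lies at -0.86 and Fbn1 at -0.96.

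Within lines, Fn1 and Fbn1 deviated together, and the pair is named for the highest Pearson's r within lines among the tested members (0.95). The most negative r within lines was that of Fn1 and Sparc (-0.75). The largest deviations of Fn1 and Fbn1 were in replicate 3 of clone E3, the library that stood apart over the tested genes. In the plot of deviations from the line mean, Fn1 and Fbn1 lay at 0.55 and 0.54 in replicate 1 of clone E3, at 0.31 and 0.42 in replicate 2 and at -0.86 and -0.96 in replicate 3. In replicate 1 of WT they lay at 0.23 and 0.18. In clone E5, Fn1 ranged from -0.38 to 0.41 and Fbn1 from -0.11 to 0.20, and the deviations of the pair had the same sign in each of the 9 libraries. Fbln1 lay between -0.10 and 0.13 of its line means and Sparc between -0.22 and 0.17.

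Genes with the most similar pattern were sought for Fbn1 and Sparc, the called members of sufficient level, by Pearson's r of log2 CPM over the 9 libraries among 10312 genes. The libraries fall into 3 lines, so r reflects mostly the line means, and it is given without a p-value. For Fbn1 they were Meis2 (r = 0.98), Spred3 (0.98) and Phf20 (0.98). Mean levels of Meis2 were 30.8, 28.5 and 22.1 CPM in WT, clone E3 and clone E5. For Sparc they were Mapk8ip1 (r = 0.99), Dync1i2 (0.99) and Nxn (0.99), and Mapk8ip1 was at 42.1, 96.8 and 40.4 CPM in the same lines.

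Lists of related matrix genes were described in the same way, by counts and medians beside those of all tested genes, whose median log2 fold change was 0.010 in clone E3, -0.0023 in clone E5 and -0.011 between the clones. At an unadjusted p under 0.05, 21.4% of all tested genes were higher and 20% lower in clone E3 against WT, 15.3% and 18.3% in clone E5 against WT, and 20.3% and 22.5% in clone E5 against clone E3. The shares called among all tested genes are the background of the called counts below. They were 5.43% higher and 4.39% lower in clone E3 against WT, and 2.69% and 5.52% in clone E5 against WT. Between the clones they were 3.49% and 7.52%. Of 5 other fibulin-family genes, 3 were tested and edgeR and DESeq2 each called 0 of them in any comparison. Against WT, 2 were higher in clone E3 at an unadjusted p under 0.05 and 0 lower, and 1 and 0 in clone E5, and between the clones 0 and 3. Efemp1 and Efemp2, which encode fibulin-3 and fibulin-4 and were named after their values were seen, passed the FDR alone in clone E3, at 0.88 and 0.73, as did Efemp1 in clone E5, at 0.46, and all 3 tested genes between the clones. The median was 0.73 in clone E3, 0.0030 in clone E5 and -0.73 between the clones.

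Of 17 genes for microfibril-associated and elastic fiber proteins, 8 were tested. In clone E3 against WT 1 was called higher and 2 lower, in clone E5 against WT 1 and 1, and in clone E5 against clone E3 2 and 2, with medians of -0.060, 0.48 and 0.53. Emilin1, an elastin-associated glycoprotein, was at 71.0, 67.7 and 71.6 CPM in WT, at 251, 210.4 and 253 CPM in clone E3 and at 113, 107 and 87.9 CPM in clone E5. It rose in clone E3 (log2 fold change 1.76, SE 0.12) and its lines did not overlap. Its relative Emilin2 rose in clone E5, from 33.1 ± 3.87 to 113 ± 12.5 CPM (SD, n = 3 each). In the other clone each passed the FDR under the fold threshold, Emilin1 at 0.55 in clone E5 and Emilin2 at 0.62 in clone E3. Thsd4, which promotes fibrillin microfibril assembly, was at 23.2, 24.3 and 25.3 CPM in WT, at 12.3, 8.79 and 5.34 CPM in clone E3 and at 0.194, 0.369 and 0.166 CPM in clone E5. It fell in both clones (-1.46, SE 0.26, and -6.65, SE 0.37). Thsd4 passed the filter on low counts only through WT and clone E3, and could be tested only as lower in clone E5. Ltbp2, a latent TGF-beta binding protein, fell in clone E3 (-1.12, SE 0.19), to -0.98 and under the fold threshold without replicate 3 of clone E3, and was higher in clone E5 than in clone E3 (1.70, SE 0.18).

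Of 23 other matricellular and related genes, 14 were tested. In clone E3 against WT 4 were called higher and 3 lower, in clone E5 against WT 1 and 2, and in clone E5 against clone E3 2 and 3, with medians of -0.13, -0.44 and -0.20. Ccn3, a CCN family protein, fell in both clones, which had 13.4 ± 2.13 CPM for E3 and 16.7 ± 1.83 CPM for E5, from 48.3 ± 2.06 CPM in WT (SD, n = 3 each), at log2 fold changes of -1.85 (SE 0.13) and -1.53 (SE 0.13). Tgfbi, a TGF-beta-induced adhesion protein, fell in clone E3 (-2.03, SE 0.25) and was higher in clone E5 than in clone E3 (1.80, SE 0.25). Ccn4 (1.40, SE 0.16), Thbs1 (1.27, SE 0.18) and Fstl1 (1.22, SE 0.17) rose in clone E3. Thbs1 encodes thrombospondin-1, a ligand of CD47, and the difference of clone E5 from clone E3 was -1.15 (SE 0.18) for Thbs1 and -1.37 (SE 0.17) for Fstl1. Tnxb, for tenascin-X, fell in clone E5 (-1.44, SE 0.28) and lay below clone E3 there (-1.15, SE 0.28). The latter value was -0.94 without replicate 1 of clone E3 and -0.97 without replicate 2 of clone E5, under the fold threshold. The other called genes were of low level and were named after their values were seen, namely Ccn5, higher in both clones than in WT, and Spock2, called lower in clone E3 than in WT and higher in clone E5 than in clone E3. Ccn5 had 1 WT library over the level of the count filter and 3 in each clone. It passed only through the clones and could be tested only as higher there than in WT. The call of Ccn5 in clone E5 was lost without replicate 3 of WT (adjusted p = 0.0603), and that of Spock2 between the clones in 9 of 14 alternatives.

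**Figure D4:**
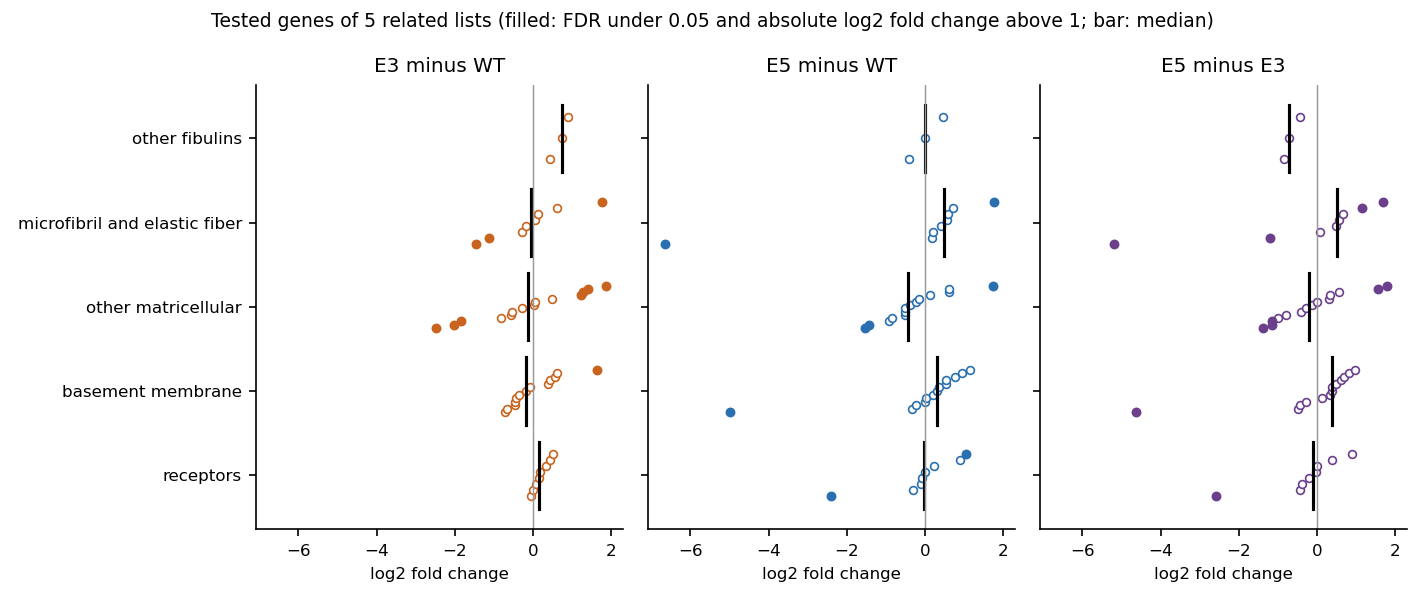
Log2 fold change (horizontal axis) of the tested genes of 5 related lists, for E3 minus WT, E5 minus WT and E5 minus E3. Filled points are called genes, and the bar is the median of the list, such as 0.73 for the other fibulins in E3 minus WT. The point farthest to the left in E5 minus WT is Thsd4 at -6.65.

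In the plot of the related lists, most points lie within 1 of 0 on the log2 scale and the called genes of the microfibril and matricellular lists lie on both sides. Of 20 basement membrane and associated genes, 13 were tested. In clone E3 against WT edgeR called 1 higher (Lamc3) and 0 lower, with 4 and 3 at an unadjusted p under 0.05 and 1 and 0 by DESeq2. In clone E5 it called 0 higher and 1 lower (Lama1) against WT and the same numbers against clone E3, with 5 and 2, and 4 and 3, at an unadjusted p under 0.05 and with 0 and 1 by DESeq2 in both. The medians were -0.18, 0.30 and 0.38. Of 12 integrin and syndecan genes that act as receptors for these proteins, 8 were tested, with medians of 0.16, -0.036 and -0.11. In clone E3 against WT edgeR and DESeq2 called 0, with 2 higher and 0 lower at an unadjusted p under 0.05. In clone E5 against WT 1 was called higher (Itgb8) and 1 lower (Itgb3), and against clone E3 0 and 1 (Itgb3), with 2 and 3 at an unadjusted p under 0.05 and 0 and 1 by DESeq2. Lamc3, Lama1 and Itgb3 were of low level and were named after their values were seen, and the call of Lamc3 was lost without replicate 2 of WT (adjusted p = 0.0501). With 0 libraries over the filter level for Lama1 in clone E5 and for Spock2 in clone E3, these genes could be tested only as lower there. Lamc3 had 1 WT library over that level and 3 in clone E3, so it could be tested only as higher than WT. Itgb3 had 1 library over it in clone E5 and 3 in each other line, and could be tested only as lower in clone E5. Itgb8 rose by 1.06 (SE 0.25) and lost its call without replicate 1 of WT (1.04), without replicate 2 of WT (0.96) and without replicate 3 of clone E5 (0.93). Itga5, a subunit of a fibronectin receptor that was likewise named after its values were seen, had a mean of 121 CPM in each of the 3 lines.

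Markers of cell types were summed in each library. Of 8 fibroblast markers 7 were tested, and their summed level was 2694 to 3024 CPM in WT, 3580 to 4564 CPM in clone E3 and 3101 to 3435 CPM in clone E5, most of it from Col3a1, while Thy1 had 0 counts in every library. Against WT, 3 were called higher in clone E3, and 1 was called higher and 3 lower in clone E5. Between the clones 5 of the 7 were called lower in clone E5, and the median was -2.11. Of 5 smooth muscle markers 2 were tested, with sums of 2.00 to 2.30 CPM in WT, 3.00 to 3.80 CPM in clone E3 and 0.409 to 0.629 CPM in clone E5. Acta2 had the highest level among them in WT and clone E3 and was called lower in clone E5 than in WT (-4.12, SE 0.33), Cnn1 had at most 1 count per library, and both tested markers were called lower in clone E5 than in clone E3, the call of Des being lost in 9 of 15 alternatives.

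Of 7 epithelial markers 3 were tested, and their sum was 451 to 459 CPM in WT, 127 to 199 CPM in clone E3 and 896 to 958 CPM in clone E5, with Krt18 the most abundant. All 3 were called lower in clone E3 than in WT, and 1 was called higher in clone E5. Between the clones all 3 were called higher in clone E5, with a median of 2.32. Epcam and Nkx2-1 had 0 counts in every library, Cldn4 had at most 3 per library and Cdh1 at most 6. LLC cells are labelled as lung adenocarcinoma, and Epcam and Nkx2-1 were not detected at this depth, whereas keratin genes were present. Of 5 mesenchymal markers 5 were tested, with a sum of 5050 to 5167 CPM in WT, 5898 to 7572 CPM in clone E3 and 7464 to 8088 CPM in clone E5, most of it from Vim. EdgeR and DESeq2 called 0 of them in any comparison. At an unadjusted p under 0.05, 2 were higher and 0 lower in each clone against WT, and 1 and 0 between the clones. The medians were -0.032 in clone E3, 0.25 in clone E5 and 0.28 between the clones.

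Of 6 leukocyte markers 2 were tested, with a sum of 2.66 to 3.43 CPM in WT, 2.76 to 3.01 CPM in clone E3 and 2.78 to 3.47 CPM in clone E5, most of it from Cd68. Lyz2, with at most 21 counts per library, was called lower in clone E5 than in WT (-3.49, SE 0.68) and than in clone E3 (-4.05, SE 0.64). It passed the filter only through WT and clone E3 and could be tested only as lower in clone E5. The same limit holds for Acta2, Col1a2 and Lum in clone E5 and for Krt19 in clone E3. Among the marker calls against WT, those of Col1a2, Krt18 and Krt19 in clone E3 were lost in 2, 2 and 3 alternatives and that of Lum in clone E5 in 5. Ptprc, Adgre1, Csf1r and Itgam had at most 2 counts in any library. None of 5 endothelial markers had enough counts to be tested, the sum was at most 0.480 CPM in any library, Vwf was the most abundant and Tie1 had 0 counts. The lines did not overlap in the fibroblast, smooth muscle and epithelial sums. In the mesenchymal sum WT lay below both clones, which overlapped each other. The sums were not tested, nor was their part in the differences of the 10 members. In bulk RNA, fewer cells of a type and less RNA per cell cannot be told apart.

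Some counts are uncertain because a gene overlaps a long noncoding RNA on the opposite strand. The library kit keeps the strand, but the strand setting of the counting is not given in the sources used here. In GENCODE vM39, Fbn1 shares 2442 exonic bases with Gm9913, Fn1 429 with Apol7d, Eln 423 with Gm30003, Cd47 378 with Gm4633 and Tnc 303 with 8030451A03Rik. Over the 9 libraries these partners had 61, 254, 3, 117 and 23 counts.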

How the data were processed

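RNA of 3 WT, 3 clone E3 and 3 clone E5 libraries was sequenced in paired-end mode. Per the submitters' processing notes and the methods, reads were checked with FastQC, trimmed by Trimmomatic and aligned by STAR, with GRCm39 as the genome. The values that the authors deposited are raw counts per gene. The annotation release, the counting tool and the strand setting it used are not given in the sources used here. GENCODE vM39 gave gene lengths and overlaps, and 50267 of 50813 gene identifiers were found in it.

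Differential expression was tested in R 4.3.3 with edgeR 4.0.16 by a quasi-likelihood F test after TMM normalization. Genes passed filterByExpr at a minimum count of 10 and a minimum total of 15. All 9 libraries entered 1 fit, and p-values were adjusted by the Benjamini-Hochberg method over all genes tested. Each standard error is the size of the log2 fold change divided by the square root of F. The test was checked on simulated data. At 44257404 to 55095219 counts per library, counting error was small for genes above a few CPM. The 10 members and Cd47 are always named. From each related list, up to 3 called genes per direction and comparison with a mean log2 CPM above 1 are named, and others are marked where they appear. For called members above that level, the 3 genes with the highest r are named, leaving out predicted and Riken names. The members and lists were chosen with earlier results of these data known. Alternatives were DESeq2 1.42.0, its size factors, upper-quartile scaling, other count filters, fits of only the lines compared, the replicate number as a block, and each library left out in turn.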

Additional observations from a re-analysis of the deposited data

Results flagged for a closer look

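For 5 members the effect in clone E5 differed from that in clone E3 by the test of the difference between the clones, both effects being taken against the same WT libraries. The effect in clone E5 minus that in clone E3, on the log2 scale, was -0.69 for Fbln1, -1.34 for Fbn1, -2.59 for Tnc and -1.23 for Sparc. For Fbln2 the fitted value was 4.27, which depends on the prior count, since clone E3 had 0 counts and clone E5 had 7. Fbln2 passed the filter only through its WT counts, and a fit of only the clones did not test it. The other 4 differences kept an adjusted p under 0.05 in every alternative that tested them, while that of Fbln2 lost its call in 8 of 14, with an adjusted p of up to 0.146. Of these, Tnc passed the filter through WT and clone E3, and clone E5 alone would not have passed it.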

How the results depend on the processing

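Of the log2 fold changes of members under the alternatives, 302 kept their direction and their side of the call, 21 lost a call, 1 gained one and 5 changed direction, none of them called before or after. Those 5 came from leaving out 1 library, which gave ranges of -0.060 (without WT replicate 1) to 0.28 for Fbln5 and -0.53 to 0.054 (without replicate 3 of clone E3) for Fbn1 in clone E3, -0.032 (without replicate 1 of clone E5) to 0.17 for Sparc in clone E5, and -0.16 (without replicate 3 of clone E3) to 0.43 for Fn1 between the clones, with -0.072 without replicate 3 of clone E5. Leaving out 1 library gave 2 to 4 called members in clone E3 against WT, 2 to 3 in clone E5 against WT and 3 to 5 between the clones, and 3 to 5, 2 to 4 and 4 to 6 by the FDR alone. Eln then entered the test in 7 of the 9 fits, since the filter asks for fewer libraries, and only through its counts in clone E3.

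With at least 10 counts in every library, Fbln2 and Tnc were not tested. The called members were then 1 in clone E3 (Sparc), 1 in clone E5 (Fbn1) and 2 between the clones (Fbn1 and Sparc), and by the FDR alone 2, 1 and 3. Over all genes, that filter gave 828, 571 and 836 calls, against 1433, 1198 and 1606. The count by the FDR alone in clone E5 against WT, 3012, became 6596 in a fit of only those lines, 6246 without replicate 3 of clone E3, and 1767 to 1953 without a WT replicate or without replicate 1 or 2 of clone E5. In clone E3 the count of 4445 became 2875 without WT replicate 2 and 6423 without replicate 3 of clone E3. The cause was not tested. Upper-quartile scaling moved the median of all genes by 0.077 in clone E3 and by -0.091 between the clones, and changed no member's call.

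The replicate numbers do not pair the libraries, since deviations of same-numbered libraries correlated at -0.17 to 0.05, and not every library correlated best with its own number. The fit with the replicate block called 3, 3 and 3 members, against 3, 3 and 4, the lost call being that of Fbln2 between the clones (4.23, adjusted p = 0.0735 by edgeR, range 0.0319 to 0.146), and it changed no other call of a member. Of 21 calls of list genes above the level set for naming, 3 were lost under at least 1 alternative, and of 9 calls of the other list genes, 3.

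Depth limits Fbln2, Eln and Tnc, which rest on few counts, and Fbn2 and Postn were at the detection limit. Genotype and clone cannot be told apart.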
